A study of Homo sapiens with 72 samples.

Results

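The loss of cytoplasmic RNA after a block of transcription was compared between A375 cells kept without glutamine and A375 cells kept with it. The comparison used 12 of the 72 libraries of the series, chosen by their labels alone: the triptolide arm (T arm) of the glutamine-free condition (mQ) and of the control condition (pQ), each at 0 and 3 h with 3 replicates. A375 is an established human melanoma line. mQ cells had spent 18 h in medium without glutamine and pQ cells the same time in control medium, which held 2 mM glutamine. Both were then given triptolide at 25 µM, a drug that stops transcription, and were harvested at once (0 h) or after 3 h. All 4 groups therefore carried the drug, and none was left untreated. QuantSeq libraries, which count the 3′ ends of polyadenylated RNA, were made from lysates cleared by centrifugation. A second arm with triptolide and cycloheximide (100 µg/ml), a drug that stops translation (TCHX arm, 12 further libraries), and T-arm libraries at 5 h (6 libraries) are given beside the main values. Only 1 cell line was studied, and the labels do not say whether replicates were separate cultures, so p-values measure the spread between these libraries.

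When transcription stops, an mRNA disappears from the cytoplasm at the pace set by its degradation, which differs widely between genes. Many immediate early mRNAs carry elements that bring in the deadenylation and decapping machinery and are lost quickly, whereas mRNAs of ribosomal proteins and of central metabolism tend to last. Glutamine feeds nucleotide and amino acid synthesis, and cells that lack it switch on the amino acid response through the kinase GCN2 and the transcription factor ATF4.

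Total counts ranged from 6565272 to 12328681 per library, and 15895 to 16766 genes were detected. Levels are given as normalised counts, scaled to a set of stable genes, so every change is relative to that set and an equal gain or loss of all RNA would not be seen. In bulk RNA, fewer cells with a transcript and less of it per cell cannot be told apart. Replicates correlated within groups at r of 0.977 or more, except the mQ 0 h group, where the lowest r was 0.961. In a fit that weighted libraries by their spread (limma-voom), replicates 2 and 3 of the mQ 0 h group had the lowest weights, 0.383 and 0.356, with replicate 3 of the pQ 3 h group at 0.444 and the other libraries at 1.12 to 2.13. The melanocyte lineage markers SOX10 (110 to 299 CPM) and DCT (58.4 to 111 CPM) were present in every library, whereas the pigment genes MLANA and TYR stayed at or under 0.866 and 1.07 CPM. The keratinocyte markers KRT5 and KRT1, the fibroblast marker COL1A2, the T cell marker CD3E and the endothelial markers PECAM1 and CDH5 were at 0 in all 12 libraries. Other markers of such cells were detected. KRT10, another keratin, reached 99.2 to 233 CPM and the fibroblast marker LUM 2.23 to 5.15 CPM. The endothelial marker VWF reached up to 2.02 CPM, the immune marker LYZ up to 1.07 and the fibroblast marker COL1A1 up to 0.609.

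Relative to the stable genes, most mRNAs fell over 3 h in both media, and the median fall did not differ detectably between them. The stable genes were chosen for a CPM at 3 or 5 h of at least 1.1 times that at 0 h. A fall of the typical gene against them is therefore partly built in. The difference between media also depended on the scale: it was 0.01 with TMM and -0.31 with genes stable at both times. Against 0 h, 8865 of 12943 tested genes were lower at 3 h in mQ (68.5%) and 9713 in pQ (75%), while 136 (1.05%) and 140 (1.08%) were higher, by edgeR's quasi-likelihood test at an adjusted p under 0.05. The median gene changed by -0.63, -0.72 and -0.84 on the log2 scale in the 3 mQ replicates, which left 64.8%, 60.6% and 55.7% of its starting level. In pQ the changes were -0.62, -0.66 and -0.85. The mean changes were -0.73 ± 0.11 and -0.71 ± 0.12 (SD, n = 3), a difference of -0.02 with a two-sided exact permutation p of 0.8, where 3 against 3 values cannot give a p under 0.1. The unstable mRNAs used to check the block of transcription were nearly gone in both media. JUN, a subunit of the AP-1 transcription factor, was left at a mean of 2.68% in mQ and 4.61% in pQ, FOS, its partner, at 9% and 4.86%, and the growth regulator MYC at 2.68% and 1.26%. IER2, an immediate early gene, was left at 2.73% and 7.46%. Of these 4 check genes IER2 passed the test of the difference between media, at -1.43 on the log2 scale (adjusted p = 0.0487 in edgeR), while JUN, FOS and MYC did not, with log2 differences of -0.91, 0.88 and 1.14 and unadjusted p of 0.165, 0.427 and 0.353.

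The question of the comparison was which RNAs are lost at another speed without glutamine, whatever their level at the start. It was put as the log2 change over 3 h in mQ minus that in pQ, so that a negative value means a faster loss in mQ. Of the 12943 genes, 7 passed the threshold (0.0541%), of which 6 were lost faster in mQ (0.0464%) and 1 slower (0.00773%). Those lost faster included the nuclear noncoding RNA NEAT1, the immediate early gene IER2, the signalling inhibitor SPRY2, the pseudogene HSP90AB4P and the noncoding transcript LOC101927673, with 1 further gene not reported here, and the RNA lost more slowly was CCNL1, which encodes cyclin L1. The 3 h changes of the 3 mQ and 3 pQ replicates did not overlap for any of the 7, as was the case for 1567 tested genes with mQ lower (12.1%) and 574 with mQ higher (4.43%). At an unadjusted p under 0.05 there were 907 genes with a faster loss (7.01%) and 353 with a slower one (2.73%), 9.73% in all. The calls depended on the replicate block of the fit: there were 0 without it and 2 with the block within each condition. Whether the replicate numbers pair the samples was not settled. The number of calls also depended strongly on single libraries. It was 1000 (293 faster, 707 slower) without replicate 3 of the mQ 0 h group and 17 without replicate 2 of that group, 4 without replicate 1 of the pQ 3 h group, 1 without replicate 3 of the pQ 0 h group, 9 without replicate 3 of the mQ 3 h group, and 0 without any of the other 7 libraries. The direction of all 7 genes held in each of 28 alternative settings, and between 8 (HSP90AB4P) and 15 (NEAT1) of these settings kept a gene past the threshold.

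**Figure D1:**
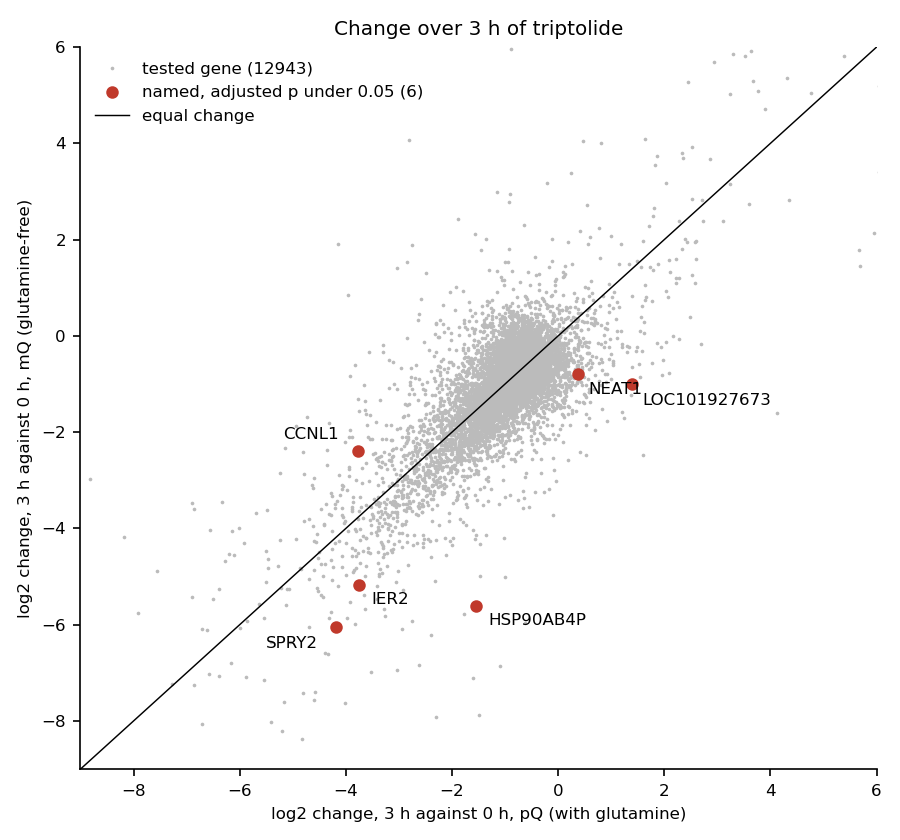
Each point is 1 of 12943 tested genes, with its fitted log2 change over 3 h of triptolide in pQ on the horizontal axis and in mQ on the vertical axis, and the line marks equal change (73 genes lie outside the axes). The red, named genes passed an adjusted p of 0.05 in edgeR (1 further gene that passed is not marked), and CCNL1 is the only red point above the line.

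NEAT1, the long noncoding RNA that builds nuclear paraspeckles (GRCh38 chr11:65422774-65445540, plus strand), had the smallest p. Its normalised counts in replicates 1, 2 and 3 were 5219, 4866 and 6243 in mQ at 0 h and 3236, 2961 and 3207 at 3 h. In pQ they were 3509, 3166 and 4847 at 0 h and 4403, 4456 and 5960 at 3 h. NEAT1 thus fell in every mQ replicate and rose in every pQ replicate, and at 3 h all mQ libraries lay below all pQ libraries. Relative to 0 h of the same replicate, 58.1% ± 5.84 was left in mQ and 130% ± 9.63 in pQ (SD, n = 3). The log2 difference was -1.15 (SE 0.15, adjusted p = 0.0176 in edgeR), with changes of -0.78 (adjusted p = 1.77e-05) and 0.37 (adjusted p = 0.00538). NEAT1 was higher in mQ at 0 h by 0.52 on the log2 scale (adjusted p = 0.00341) and lower at 3 h, with a difference of -0.64 (adjusted p = 0.000768).

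The same crossing of NEAT1 appeared in the TCHX libraries, which are separate from those of the T arm. Its normalised counts there were 5318, 4874 and 5411 in mQ at 0 h and 2691, 2816 and 2833 at 3 h, against 4105, 3020 and 4022 and then 4365, 5086 and 6426 in pQ. This left 53.6% ± 3.74 in mQ and 145% ± 33.6 in pQ, a log2 difference of -1.41 (SE 0.17, adjusted p = 0.00454 in edgeR). NEAT1 was the only gene of 13298 tested in that arm to pass (0.00752%), where 429 genes (3.23%) had an unadjusted p under 0.05, 1.45% as faster and 1.77% as slower. Its log2 difference lay between -1.29 and -1.56 with any TCHX library left out, and it no longer passed without replicate 1 of the mQ 0 h, replicate 1 of the mQ 3 h or replicate 2 of the pQ 3 h group. The difference between the arms was 0.25 for NEAT1 (unadjusted p = 0.28). At 5 h of triptolide alone its counts were 1890, 1967 and 3207 in mQ and 2671, 3211 and 3373 in pQ, so that the groups overlapped, and the log2 difference from the same 0 h libraries was -0.95 (unadjusted p = 0.00167). No gene of 13008 passed at 5 h (0% called, 719 genes or 5.53% at an unadjusted p under 0.05, of which 2.61% as faster and 2.91% as slower, edgeR), and none did without the replicate term or with TMM scaling, while 576 passed without replicate 3.

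MALAT1, an abundant RNA of nuclear speckles made from a neighbouring gene on chromosome 11, was higher in mQ at 0 and 3 h. It had normalised counts of 55620, 61690 and 87650 in mQ at 0 h and 40960, 42370 and 63380 at 3 h, against 25220, 25340 and 37660 and then 26240, 25140 and 35980 in pQ. Every mQ library was above every pQ library of the same time, and all 3 mQ replicates fell while the pQ replicates stayed near their start. MALAT1 was left at 71.5% ± 2.58 in mQ and 99.6% ± 4.28 in pQ, a log2 difference of -0.48 that did not pass (SE 0.10, adjusted p = 0.158 in edgeR). For each 100 counts of MALAT1 there were 9.38, 7.89 and 7.12 of NEAT1 in mQ at 0 h and 7.9, 6.99 and 5.06 at 3 h, and 13.9, 12.5 and 12.9 followed by 16.8, 17.7 and 16.6 in pQ. The log2 ratio of the 2 RNAs changed by -0.31 ± 0.17 in mQ and 0.38 ± 0.12 in pQ (exact permutation p = 0.1, the smallest that 3 against 3 values can give), and by -0.45 and 0.70 in the TCHX arm. How much nuclear RNA each cytoplasmic lysate held was not tested.

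**Figure D2:**
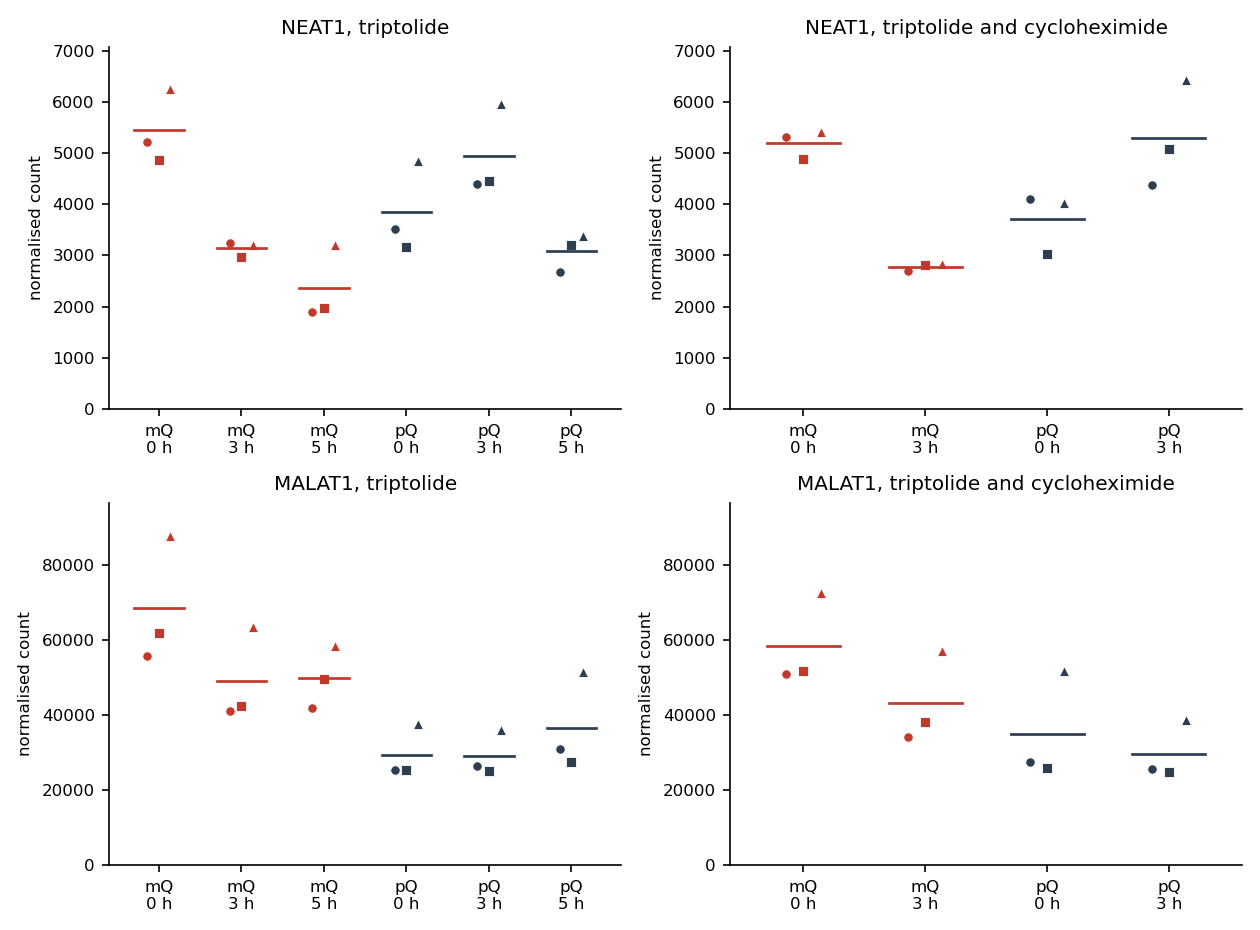
Normalised counts of NEAT1 (top) and MALAT1 (bottom) by medium and time, with triptolide alone (left, 0, 3 and 5 h) and with triptolide and cycloheximide (right, 0 and 3 h), where circles, squares and triangles are replicates 1, 2 and 3 and lines are means. NEAT1 falls between 0 and 3 h in mQ and rises in pQ in both arms, while the means of MALAT1 stay higher in mQ than in pQ.

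IER2, an immediate early gene with a very unstable mRNA (chr19:13150411-13154911, plus strand), fell by a larger factor in mQ, from a higher start to a like level. At 0 h it had 2050, 2749 and 3579 normalised counts in mQ and 887, 1233 and 1106 in pQ, and at 3 h 60.02, 67.83 and 100 in mQ and 50.39, 96.87 and 97.96 in pQ. The groups were apart at 0 h and overlapped at 3 h. What was left was 2.73% ± 0.237 in mQ and 7.46% ± 1.62 in pQ (SD, n = 3), with a log2 difference of -1.43 (SE 0.22, adjusted p = 0.0487 in edgeR). Nearly all of this difference stood at 0 h, where mQ exceeded pQ by 1.35 on the log2 scale (adjusted p = 2.44e-05), against -0.08 at 3 h. At 5 h IER2 had 53.46, 52.46 and 957.2 normalised counts in mQ and 69.67, 54.43 and 31.23 in pQ. Whether the 3 h level was near a floor, where the share left would mostly follow the 0 h level, was not tested. With cycloheximide, IER2 was left at 50.9% ± 3.24 in mQ and 42.9% ± 8.47 in pQ, and the log2 difference was 0.26 (unadjusted p = 0.148). The T arm differed from the TCHX arm by -1.69 for IER2 (unadjusted p = 8.36e-06, adjusted p = 0.114), and none of 13680 genes passed that test (0% called), with 860 genes (6.29%) at an unadjusted p under 0.05 in edgeR, 4.07% lower in the T arm and 2.21% higher. Without replicate 3 of the pQ TCHX 0 h group 4 genes passed, IER2 among them (-1.68, adjusted p = 0.0387) and CHAC1 (-4.04, adjusted p = 0.0344), and without replicate 3 of the mQ T 0 h group 48.

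SPRY2, a feedback inhibitor of the RAS-MAPK pathway (chr13:80335976-80341126, minus strand), fell to very few reads in both media. It had 1176, 1342 and 1450 normalised counts in mQ at 0 h and 11.25, 20.87 and 27.2 at 3 h, against 855, 860.1 and 823 and then 38.98, 63.85 and 39.67 in pQ. Here the mQ libraries were above the pQ libraries at 0 h and below them at 3 h. SPRY2 was left at 1.46% ± 0.467 in mQ and 5.6% ± 1.58 in pQ, a log2 difference of -1.87 (SE 0.31, adjusted p = 0.0487 in edgeR), made of 0.64 at 0 h and -1.23 at 3 h. With cycloheximide 22% ± 6.59 and 28.4% ± 12.5 were left, a log2 difference of -0.24.

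CCNL1, a cyclin that works with CDK11 in splicing (chr3:157146508-157160760, minus strand), was the only gene called slower in mQ. Its normalised counts were 1042, 865 and 1144 in mQ at 0 h and 1168, 1174 and 1046 in pQ, which overlapped. At 3 h they were 192.3, 216.5 and 172 in mQ and 67.5, 93.57 and 87.44 in pQ, so that every mQ library was above every pQ library. CCNL1 was left at 19.5% ± 5.08 in mQ and 7.37% ± 1.39 in pQ, a log2 difference of 1.37 (SE 0.22, adjusted p = 0.0487 in edgeR). Unlike that of IER2, its difference stood at 3 h, at 1.22 (adjusted p = 0.000241), against -0.15 at 0 h (adjusted p = 0.497). With cycloheximide 54% ± 3.51 was left in mQ and 49.2% ± 11.4 in pQ, and the log2 difference was 0.18.

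The remaining pair had low counts. LOC101927673, a noncoding transcript in the NCBI annotation, had 87.06, 100.5 and 89.94 normalised counts in mQ at 0 h and 39.39, 39.14 and 62.31 at 3 h, and 19.49, 40.96 and 38.48 followed by 74.15, 81.46 and 102.8 in pQ. Like NEAT1 it fell in mQ and rose in pQ, with a log2 difference of -2.39 (SE 0.39, adjusted p = 0.0487 in edgeR), yet in the TCHX arm 82.7% ± 30.5 and 80.9% ± 24.9 were left and the difference was 0.02. At 0 h mQ exceeded pQ by 1.52 in the T arm and by 0.05 in the TCHX arm on the log2 scale. For NEAT1 these values were 0.52 and 0.49. HSP90AB4P, a processed pseudogene of an HSP90 gene (chr15:58691106-58693125, minus strand), had 51.65, 89.44 and 79.08 normalised counts in mQ at 0 h and 0, 2.609 and 1.755 at 3 h, against 54.31, 61.44 and 65.2 and then 14.26, 26.42 and 22.67 in pQ. The mQ 3 h libraries held 4 reads of it in all, so its fitted log2 difference of -4.06 (SE 0.67, adjusted p = 0.0487 in edgeR) depends on the prior count. Over the summed reads 1.81% was left in mQ (95% exact interval 0.487 to 4.72, counting error only) and 34.5% in pQ (25.4 to 46.4). Reads of a pseudogene cannot be told apart from those of its near-identical relatives, so this gene is uncertain.

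**Figure D3:**
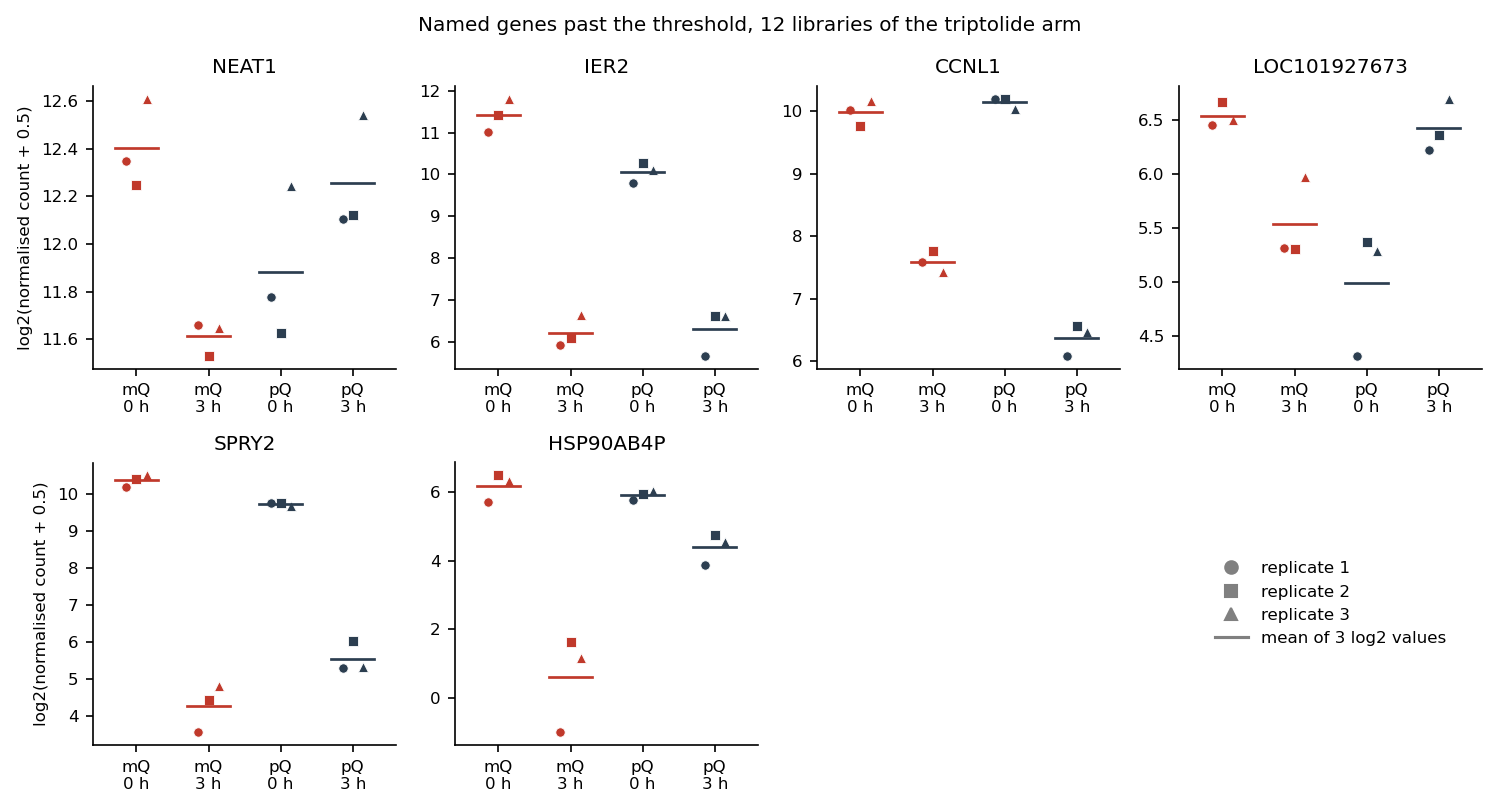
The named genes past the threshold in the 12 libraries, as log2(normalised count + 0.5) by medium and time, with circles, squares and triangles for replicates 1, 2 and 3, lines for the mean of 3 log2 values, and a separate vertical scale in each panel. IER2 differs between media at 0 h and overlaps at 3 h, CCNL1 overlaps at 0 h and differs at 3 h, and NEAT1 and LOC101927673 fall in mQ and rise in pQ.

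The values of these genes at 5 h came from libraries of which mQ replicate 3 stood apart. IER2 had 53.46, 52.46 and 957.2 normalised counts in mQ at 5 h, SPRY2 4.649, 13.86 and 286.1, and CCNL1 61.6, 57.41 and 484.1. The log2 differences from the 0 h libraries, which the 3 h values share, were 0.70 for IER2, 1.56 for SPRY2, 2.64 for CCNL1 (unadjusted p = 0.0317) and -1.92 for LOC101927673 (unadjusted p = 0.00193). None of these passed at 5 h.

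Next by p among RNAs lost more slowly was MAT2A, the enzyme that makes the methyl donor S-adenosylmethionine. Its mRNA is known for hairpins in the 3′ UTR that METTL16 methylates, which couples splicing and stability of the mRNA to the supply of that donor. The sequence TACAGAGAA, the core of those hairpins, occurs 5 times in its 3′ UTR and in 2.01% of the 3′ UTRs of all matched tested genes (222 genes, sense strand). The 5 copies are shown because MAT2A is the only named gene with a matched model that holds the motif. Positions count from the first base of the UTR, and capitals mark the motif, which lies on the plus strand of GRCh38.
MAT2A position 40, chr2:85543803-85543829: ggcgtaggcTACAGAGAAgccttcaag
MAT2A position 827, chr2:85544590-85544616: gtgatgtcaTACAGAGAAgtcacaggg
MAT2A position 1012, chr2:85544775-85544801: tggtgtagcTACAGAGAAaccagcttc
MAT2A position 1127, chr2:85544890-85544916: tggcgtaagTACAGAGAAgccatcacc
MAT2A position 1350, chr2:85545113-85545139: ctggtgtggTACAGAGAAgccagcttg

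MAT2A had 616.8, 507.2 and 814.1 normalised counts in mQ at 0 h against 1320, 1450 and 1356 in pQ, and at 3 h the means were 297 ± 9.59 in mQ and 302 ± 15.9 in pQ (SD, n = 3). The media were thus far apart at 0 h, by -1.1 on the log2 scale (adjusted p = 0.000207 in edgeR), and level at 3 h, at -0.02. MAT2A was left at 48% ± 12.4 in mQ and 22% ± 1.54 in pQ, a log2 difference of 1.08 that did not pass (SE 0.21, adjusted p = 0.0926). With cycloheximide 41.5% ± 2.91 and 53.5% ± 15.6 were left, and the T arm differed from the TCHX arm by 1.36 (unadjusted p = 0.000803, adjusted p = 0.423). At 0 h in the TCHX arm mQ was below pQ by -0.35 for MAT2A, where pQ replicate 3 had 803.6 normalised counts beside 1406 and 1308.

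RPN2, GADD45B, EAF2 and ARCN1 came next by p with a slower loss in mQ, and none of them passed. RPN2, a subunit of the oligosaccharyltransferase, had 27.85, 95.57 and 709.7 normalised counts in pQ at 0 h and 5.627 to 55.29 in the other 9 libraries, with a log2 difference of 4.80 (adjusted p = 0.0926 in edgeR). GADD45B, a stress gene with a very unstable mRNA, was left at 7.8% ± 1.02 in mQ and 2.22% ± 0.223 in pQ, with 4 reads in each pQ library at 3 h (log2 difference 1.85, adjusted p = 0.306). EAF2, a partner of elongation factors, had a log2 difference of 2.19 (adjusted p = 0.284), with 7 to 11 reads in the mQ libraries at 0 h. ARCN1, a coatomer subunit, was left at 108% ± 26.8 in mQ and 49.9% ± 16.6 in pQ, without overlap between replicates (log2 difference 1.12, adjusted p = 0.306). Their difference between media at 0 h was lower in the T arm than in the TCHX arm. The T minus TCHX values were -2.12 for EAF2 and -1.36 for ARCN1 on the log2 scale (unadjusted p = 0.00699 and 0.00088 in edgeR). Neither passed (adjusted p = 0.275 for both). These genes were named by a test that uses the same T-arm 0 h libraries, so the unadjusted p-values are not separate evidence. Replicate 3 of the pQ TCHX 0 h group stood apart here, with 8.831 normalised counts of EAF2 beside 73.18 and 79.74 and 315.3 of ARCN1 beside 793 and 970.9. Without it the values were -1.52 and -1.02 (unadjusted p = 0.0125 and 0.00178), a setting chosen after seeing the data.

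Genes of the amino acid response were higher without glutamine before and after the block of transcription. Of 32 tested members, 30 were higher in mQ at 0 h and 28 at 3 h (beside 7.7% and 4.98% of all genes), with median log2 differences between media of 1.86 and 1.76. None of the 32 passed the test of decay. An unadjusted p under 0.05 was reached by 2 in each direction (6.25%, beside 7.01% of all genes as faster and 2.73% as slower). The median log2 difference was -0.06 against -0.04 over all genes tested. ATF4 and DDIT3, which encode transcription factors of this response and were named after their values had been seen, had 4256, 5121 and 10000 and 55.33, 79.57 and 527.4 normalised counts in mQ at 3 h, with replicate 3 well above the others. CHAC1, which degrades glutathione, had the lowest difference in decay. It had 1585, 1993 and 2389 normalised counts in mQ at 0 h and 5.627, 23.48 and 21.06 at 3 h, against 29.24, 25.94 and 39.54 and then 2.852, 6.605 and 2.429 in pQ. What was left was 0.805% ± 0.417 in mQ and 13.8% ± 10.3 in pQ, but the pQ libraries at 3 h held 3 to 6 reads each, and the log2 difference of -3.91 did not pass (SE 0.69, adjusted p = 0.0709 in edgeR). With cycloheximide CHAC1 was left at 44.2% ± 4.64 in mQ and 31.2% ± 22 in pQ, a log2 difference of 1.25 (unadjusted p = 0.0216). That difference rested on replicate 3 of the pQ TCHX 0 h group, which had 219 normalised counts of CHAC1 beside 39.14 and 40.57, and without this library it was 0.14 (unadjusted p = 0.609). Its 3′ UTR holds the AU-rich nonamer TTATTTATT, a destabilising element present in 10.1% of matched genes, shown in capitals within its surroundings (UTR position 195, plus strand).
CHAC1 chr15:40955960-40955986: cttgaaactTTATTTATTgcaccatgt

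SLC7A5, the large neutral amino acid transporter, kept its excess in mQ over 3 h. Its normalised counts were 10160, 11870 and 11350 in mQ and 2724, 2931 and 3169 in pQ at 0 h, and 5850, 6135 and 7898 against 1895, 2618 and 2288 at 3 h. The groups did not overlap at either time, and the log2 difference in decay was -0.37 (unadjusted p = 0.0245). Among 18 aminoacyl-tRNA synthetases, which charge tRNAs with amino acids, 10 were higher in mQ at 0 h, beside 7.7% of all genes. None passed the test of decay, as 0.0541% of all genes did. FARSA, the phenylalanine enzyme, was left at 57.3% ± 8.84 in mQ and 82.6% ± 8.16 in pQ (log2 difference -0.54), and CARS1, the cysteine enzyme, at 52.1% ± 1.22 and 90.4% ± 14.9 (-0.77), where CARS1 has extra copies in the table and is uncertain. Of 32 genes of glutamine, glutamate and aspartate metabolism none passed, and CTPS1, which uses glutamine to make CTP, had a value of -0.38 and GFPT2, of hexosamine synthesis, 0.65.

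Immediate early and other AU-rich mRNAs were the shortest-lived group, with a median of 7.86% left in mQ and 10% in pQ. Of 36 tested, IER2 and SPRY2 passed as faster (0.0464% of all genes did). At an unadjusted p under 0.05, 6 were faster (16.7%, beside 7.01% of all genes) and 1 slower (2.78%, beside 2.73%). The log2 difference was negative for 28 of 36, beside 6994 of all 12943 genes, with a median of -0.41 beside -0.04 over all genes. Next to IER2 and SPRY2 these were SPRY4, a relative of SPRY2, at -0.96, the AP-1 genes JUND at -0.70 and FOSB at -1.68, and the zinc finger gene KLF6 at -0.68. The median change of the group over 3 h was -3.83, -3.30 and -4.31 in the mQ replicates and -3.43, -3.50 and -3.57 in the pQ replicates, which overlapped. In the TCHX arm the median difference was 0.05, and without replicate 3 of the mQ 0 h group it was 0 in the T arm. In that setting 4 of 37 passed as faster (10.8%, beside 2.2% of all genes) and 1 as slower (2.7%, beside 5.31%). The motif TTATTTATT was absent from the 3′ UTRs of IER2, SPRY2 and CCNL1, and the shorter ATTTA occurred 0, 2 and 2 times.

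Host genes of small nucleolar RNAs, whose spliced transcripts are degraded when ribosomes reach their early stop codons, lay on the other side. Of 14 tested none passed. At an unadjusted p under 0.05, 4 were slower in mQ (28.6%, beside 2.73% of all genes) and 0 faster (beside 7.01%). The values were positive for 12 of 14 and negative for 2, beside 6994 negative of all 12943 genes, and the median was 0.38. GAS5 had 2370, 2803 and 3301 normalised counts in mQ at 0 h and 1224, 1481 and 1976 at 3 h, against 1752, 2077 and 1805 and then 643.6, 773.9 and 638.8 in pQ. mQ libraries of GAS5 were above pQ libraries at both times, and 54.8% ± 4.44 was left in mQ beside 36.5% ± 0.971 in pQ (log2 difference 0.59, adjusted p = 0.356 in edgeR). SNHG12 was left at 21.8% ± 0.463 and 14% ± 1.8 (0.66), and ZFAS1 and EPB41L4A-AS1 had values of 0.87 and 0.41. In the TCHX arm the median of the group was 0.08, where GAS5 was left at 59.3% ± 3.57 in mQ and 45.3% ± 1.54 in pQ. Without replicate 3 of the mQ 0 h group 5 of 14 passed as slower (35.7%, beside 5.31% of all genes) with a median of 0.53, and over all alternatives the median stayed between 0.10 and 0.53.

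**Figure D4:**
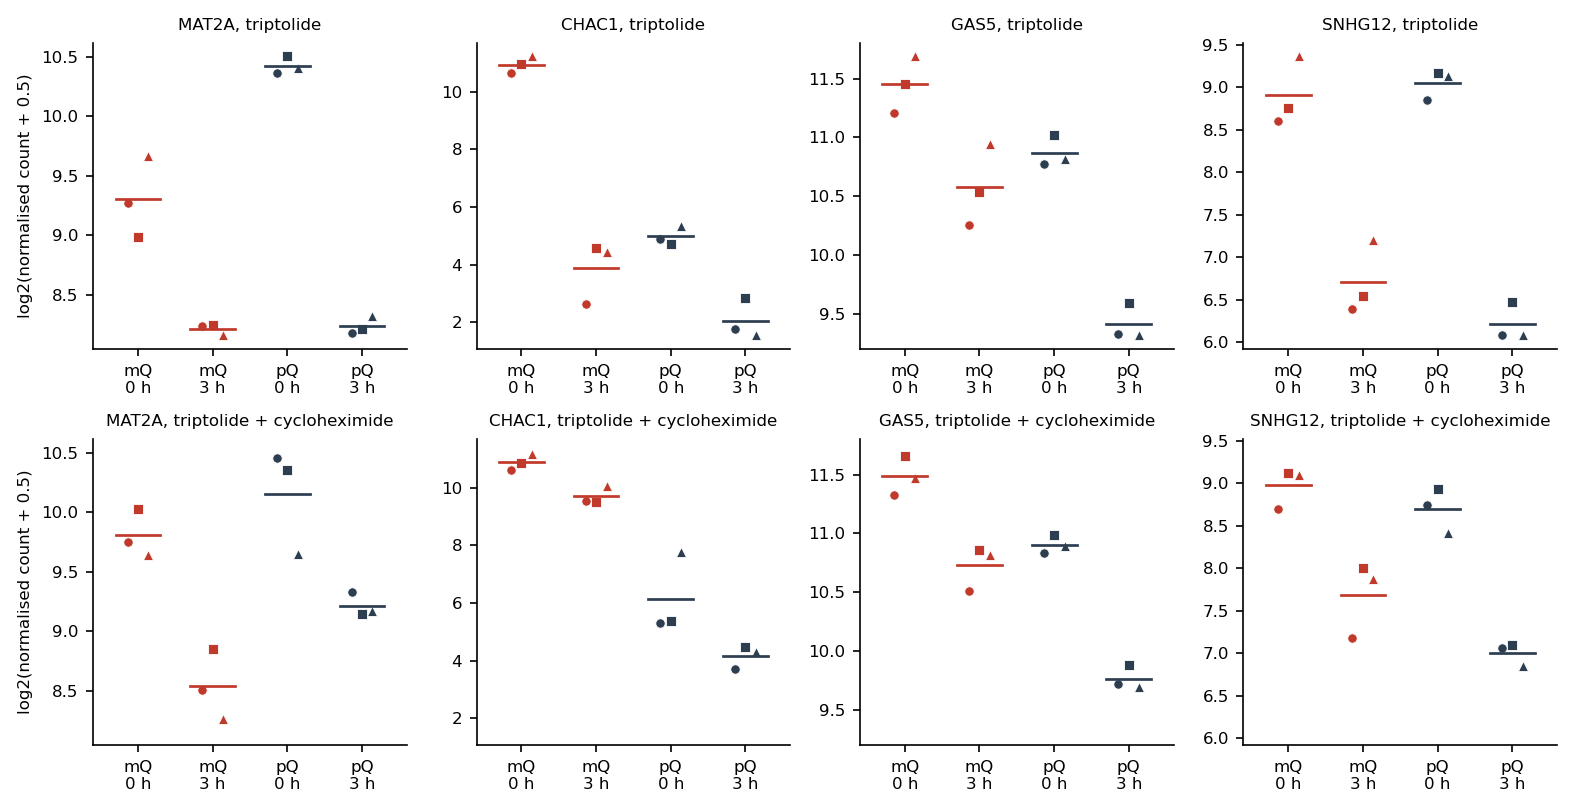
MAT2A, CHAC1, GAS5 and SNHG12 as log2(normalised count + 0.5) by medium and time, with triptolide alone (top) and with cycloheximide (bottom), where circles, squares and triangles are replicates 1, 2 and 3, lines are means of log2 values and vertical scales differ between genes. MAT2A is lower in mQ at 0 h and level at 3 h with triptolide alone, and CHAC1 in mQ falls by 3 h to below the 0 h libraries of pQ, though its mean stays above that of pQ at 3 h, with triptolide alone and much less with cycloheximide.

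Among 41 mRNA decay factors none passed. SMG8, which regulates the nonsense-mediated decay kinase SMG1, had 317.3, 245 and 358.2 normalised counts in mQ at 0 h and 45.96, 46.96 and 30.72 at 3 h, against 596, 690.8 and 560 and then 174.9, 237.8 and 155.4 in pQ. Its mQ libraries were below its pQ libraries at both times, and 14.1% ± 5.31 and 30.5% ± 3.48 were left (log2 difference -1.21, adjusted p = 0.262 in edgeR). CNOT11, of the CCR4-NOT deadenylase, had a value of -0.49. In the group of SR splicing factors, CLK kinases and cyclins L, CCNL1 was the only call among 18, and CLK3, a kinase of SR proteins, had a value of -0.56, opposite in sign to CCNL1.

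Of 73 ribosomal protein genes, whose mRNAs were among the stable ones with medians of 76.1% left in mQ and 71.4% in pQ, none passed and the median log2 difference was 0.05. RPL27A had a value of -0.40 (unadjusted p = 0.00374 in edgeR). Without replicate 3 of the mQ 0 h group 23 of 74 passed as slower (31.1%, beside 5.31% of all genes), among them RPL6 at 1.09 and RPL4 at 0.97, and 3 as faster. Of all lists, the ribosomal protein genes had the count of calls that moved most with that library. By share, more of the snoRNA host genes passed as slower (35.7%).

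Many genes of the cell cycle were lower in mQ at both times. Of 43 replication and repair genes 22 were lower in mQ at 0 h and 25 at 3 h, and of 25 mitotic genes 15 and 23, beside 15% and 15.2% of all genes. BLM, a DNA helicase, was left at 37.1% ± 4.23 in mQ and 62.9% ± 12.7 in pQ (log2 difference -0.74), CENPE, a kinetochore motor, at 36.3% ± 6.72 and 55% ± 3.7 (-0.62), and the proliferation marker MKI67 at 41.7% ± 7.12 and 60% ± 2.87 (-0.55). The replicative helicase gene MCM5 had a value of -0.38. No member of either list passed the test of decay, and the medians were -0.03 and -0.07, beside -0.04 over all genes.

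No member passed in the lists of cholesterol and fatty acid synthesis (21), endoplasmic reticulum chaperones and unfolded protein response (19), p53 targets (16) or ZNF zinc finger genes (381). CYP51A1 and STARD4, of sterol synthesis and transport, had values of 0.59 and 0.81. EDEM1 and SYVN1, which act in the disposal of misfolded proteins, had 1.1 and 1.17, and SYVN1 was left at 98.2% ± 50.8 in mQ and 37.2% ± 0.718 in pQ, a wide spread between mQ replicates. The cell death genes BAX, whose replicates overlapped, and BBC3 had -0.97 and -1.06. Of the 16 p53 targets 10 were negative, with a median of -0.06 and a highest value of 0.90. ZNF mRNAs were short-lived in both media, with medians of 30.7% and 31.8% left and a median difference of -0.17, and ZNF316 and ZNF304 had -0.87 and -2.35. A further nuclear noncoding RNA, KCNQ1OT1, had a value of 0.98, opposite in sign to NEAT1 and MALAT1.

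**Figure D5:**
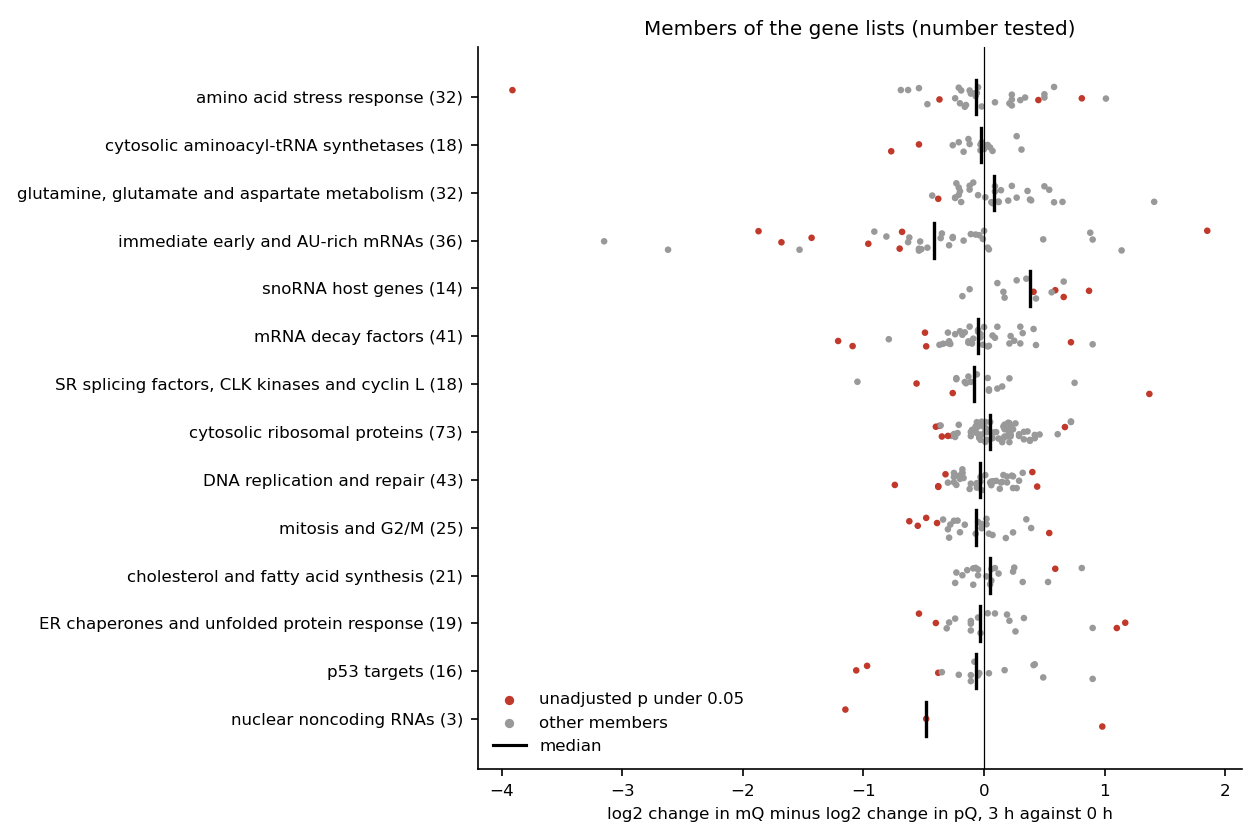
Each point is a tested member of a gene list at its log2 change over 3 h in mQ minus that in pQ (horizontal axis), with the number tested in brackets, red points for an unadjusted p under 0.05 and a black bar for the list's median over all tested members, 1 of which is not drawn. Among the lists drawn, which leave out the ZNF genes, the medians lie between -0.08 and 0.08 except for immediate early and AU-rich mRNAs (-0.41), nuclear noncoding RNAs (-0.48) and snoRNA host genes (0.38).

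Because the log2 difference in decay equals the difference between media at 3 h minus that at 0 h, it could be placed at either time. For the 907 genes with an unadjusted p under 0.05 and a faster loss in mQ, the larger part stood at 3 h for 588 and at 0 h for 319, with medians of -0.50 at 3 h and 0.15 at 0 h. For the 353 genes with a slower loss the order was turned round, with 258 genes at 0 h and 95 at 3 h, and medians of -0.81 at 0 h and 0.13 at 3 h. At 0 h in the TCHX arm, which had the same media, the same 353 genes had a median difference between media of 0.10 in place of -0.81, whereas the 907 genes had -0.01. Both sets were picked by a test that uses the T-arm 0 h libraries. A smaller difference in libraries that did not pick them is therefore partly built in, and no conclusion is drawn from it. MAT2A, RPN2, EAF2 and ARCN1 had differences between media of -0.35, 0.06, -0.30 and 0.01 at 0 h in the TCHX arm. These values depended on replicate 3 of the pQ TCHX 0 h group, without which they were -0.51, -0.21, -1 and -0.40, of the same sign as in the T arm, and the medians of the slower and faster genes were -0.09 and -0.04.

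The difference between media at 0 h was also compared between the arms over all genes, a test added after these values had been seen. Of 13680 genes 1567 were lower in mQ in the T arm than in the TCHX arm at an unadjusted p under 0.05 (11.5%) and 340 higher (2.49%), and without replicate 3 of the pQ TCHX 0 h group 778 (5.54%) and 225 (1.6%). After adjustment only a mitochondrial tRNA listed as TRNA passed (0.00731% called, edgeR). It had 3669, 14 and 5153 reads in mQ and 31, 25 and 49 in pQ in the T arm, and 6, 8 and 35 in mQ and 3258, 26 and 2613 in pQ in the TCHX arm, so that it was high in 2 of 3 libraries of a different medium in each arm. Without replicate 3 of the mQ T 0 h group 1729 genes passed, and without replicate 3 of every group 459. The 0 h libraries of the arms differed in cycloheximide and were separate samples, which cannot be told apart.

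The TCHX arm gave a separate reading of the genes with an unadjusted p under 0.05. Of the 905 faster genes with a TCHX value, 582 (64.3%) were negative there too, beside 57.5% of all genes tested in that arm, with a median of -0.07. Of the 349 slower genes, 139 (39.8%) were positive, beside 42.5% of all genes, with a median of -0.05. The latter depended most on replicate 3 of the pQ TCHX 0 h group. Without it 249 of the slower genes (71.3%) were positive beside 52.1% of all genes, with a median of 0.14, and 519 of the faster genes (57.3%) were negative beside 47.9%. Without replicate 3 of the mQ TCHX 0 h group 207 of the slower genes (59.3%) were positive beside 51.1% of all genes. Without replicate 2 of the mQ TCHX 3 h group 175 (50.1%) were, beside 45.4%. With any other TCHX library left out 97 to 147 were (27.8% to 42.1%), beside 38.8% to 47.2% of all genes. Among the 7 called genes NEAT1 alone passed in both arms.

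Features of the coding sequence and 3′ UTR were set beside these groups as a description, for genes matched to GENCODE v44 models (11079 of 12943, 85.6%). Of the 6 genes called faster only 3 matched, so their features are not summarised. The 811 matched genes with an unadjusted p under 0.05 and a faster loss had a median coding length of 1521 bases and 3′ UTR of 1245 bases, beside 1416 and 1410 for all matched genes, and the 293 slower genes had 1167 and 1221. TTATTTATT occurred in 9.25% of the 3′ UTRs of faster and 4.78% of slower genes, beside 10.1% of all, and ATTTA, which the nonamer contains, in 66.7% and 85%, beside 75.3%. The median shares of codons for glutamate were 7.19% and 6.90% (all genes 7.01%), for aspartate 4.89% and 4.77% (4.83%) and for glutamine 4.60% and 4.26% (4.47%).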

How the data were processed

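The authors deposited unnormalised read counts for each gene. By their methods and the submitters' processing notes, forward reads were trimmed of adapter and poly(A) sequence with fastp 0.20.1, mapped to GRCh38.p13 with HISAT2 2.2.1 and counted on exons with HTSeq 0.13.5 and NCBI's annotation. No molecular identifiers were stated, so counts may hold PCR copies and any interval covers counting error only. The table had 44659 gene names, of which 15166 had no count, 0 spike-in names and 0 columns without a sample. Another 5084 names of extra copies of 2713 genes held at most 0.072% of counts, and a named gene that has them is called uncertain. Names of mitochondrially encoded mRNAs were not analysed here.

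Groups and replicate numbers came from the sample titles. The 12 libraries were fitted in R 4.3.3 with edgeR 4.0.16 (filterByExpr, glmQLFit and glmQLFTest, 12943 genes, 4 group terms and a replicate block, as the study's linear model has a replicate term), with Benjamini-Hochberg adjustment over all genes and a threshold of 0.05. Size factors came from 81 genes found stable by the study's rule, which asks for over 0.2 CPM at 0 h, a level at 3 or 5 h at least 1.1 times that at 0 h, and a level at 0 h over 0.1 times the later one, in all replicates of the 36 medium libraries. That rule gave 82 genes, which held 1.39 to 3.67% of counts. The biological coefficient of variation was 0.163 and the median standard error of a log2 difference 0.29. The share left is 100 times the normalised count at 3 h over that at 0 h of the same medium and replicate. The scripts were tested on simulated counts. Gene places and sequences came from GENCODE v44 models on GRCh38.

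Named genes were all genes past the threshold with a mean of 50 counts or more in a 0 h group, the next by p up to 6 in a direction, the 2 members with the smallest p of each list, and JUN, FOS, MYC and IER2. Some genes that the rule names are not reported here. The members and lists were chosen with earlier results of these data known. Alternatives were TMM and other scalings, other filters, blocks and library sets, DESeq2 1.42.0, limma-voom (limma 3.58.1) and leaving out libraries.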

Additional observations from a re-analysis of the deposited data

Results flagged for a closer look

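The T-arm change over 3 h differed between media by a test of the difference itself for 7 genes, of which 6 are reported here: NEAT1 (-1.15 on the log2 scale), IER2 (-1.43), SPRY2 (-1.87), LOC101927673 (-2.39), HSP90AB4P (-4.06) and CCNL1 (1.37). In the TCHX arm the same test was passed by NEAT1 alone of 13298 genes, with a difference of -1.41. The difference between media at 0 h was itself different between the arms for the mitochondrial tRNA listed as TRNA, by 12.69 on the log2 scale, with its reads in 2 of 3 libraries of the mQ T and of the pQ TCHX group. Groups of 3 libraries were too small to be tested for single libraries that stood apart.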

How the results depend on the processing

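The 3 h T-arm comparison gave 7 calls (6 faster, 1 slower). With other scalings there were 6 with TMM (4 faster, 2 slower, 5 of them among the 7), 8 with stable genes of the 12 libraries, 1 with the median of ratios and 166 (165 faster) with genes stable at both times, which moved the median of all genes from -0.04 to -0.32. With other models there were 0 without the replicate block, 2 with the block within each condition, 65 with DESeq2 (62 faster), 263 without a filter on low counts (126 faster), 1 with a mean of at least 50 counts and 0 against a fold of 1.5. Settings chosen after seeing the data gave 1 call with 36 libraries in the fit and 0 without their replicate block, and 555 with library weights in limma-voom (290 faster, 265 slower). Leaving out 1 library or replicate number gave 0 to 1000 calls, with 0, 2 and 259 without replicates 1, 2 and 3. All 7 genes called in the main comparison were among the 1000.

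Residual correlations between samples of the same replicate number were weak and partly of mixed sign. For replicate 1 they ran from 0.0937 to 0.234, with 5 of 6 pairs over 0.1. For replicate 2 they ran from -0.135 to 0.186 (1 of 6 over 0.1) and for replicate 3 from -0.273 to 0.334 (3 of 6). Whether the numbers pair the samples was thus not settled. The shares left, which set 3 h against 0 h of the same number, rest on that pairing. The block was kept because the study's model has it.

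The 5 h comparison had 0 calls, and 0 to 576 when a library or replicate number was left out. The TCHX comparison had 1 call, 2 with TMM and 0 to 4 with a library left out. The comparison between arms had 0 calls, 1 with TMM and 0 to 48 with a library left out, the 48 without replicate 3 of the mQ T 0 h group. The comparison of 0 h differences between arms had 1 call and 0 to 1729 with a library left out. The median change per replicate differed by -0.02 between media, by 0.01 with TMM, which turned its sign, by -0.31 with genes stable at both times (exact permutation p = 0.2), and by -0.04 to 0 without a replicate. The causes of these shifts were not tested. Signs of the named genes held in all 28 alternatives, except FOS, which reached 0.

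The depth limits genes nearly absent at 3 h, such as CHAC1, GADD45B, MYC and HSP90AB4P. No spike-in scale was used, so an equal change of all RNA would not be seen.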
